A study of Mus musculus with 20 samples.

Results

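The mitochondrial ribosomal protein genes were described in the hearts of old mice fed rapamycin or a control diet. The members were all gene symbols of the count table made of Mrpl or Mrps followed by a number. They came to 73 of 34291 gene rows, of which 47 were Mrpl genes, named for the large subunit, and 26 were Mrps genes, named for the small subunit. The names were not taken as proof of place in the ribosome: Mrps30 lies in the large subunit in structures of the mammalian mitochondrial ribosome, and Mrps36 is now known as a component of the oxoglutarate dehydrogenase complex.

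The 2 groups were C57BL/6 mice that started their diet at 24 months of age, stayed on it for 3 months and were 27 months old at collection. In the rapamycin group, 10 mice ate a diet with 14 ppm of rapamycin, an inhibitor of the kinase complex mTORC1, and in the control group 10 mice ate the control diet. Poly(A) RNA of the whole frozen heart was sequenced as 50 bp paired-end reads, 1 library per mouse. Neither the sex of the mice nor a batch is given by the labels, so neither could be set against diet.

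Mitochondria have their own ribosome, which makes only the few membrane subunits of the respiratory chain and ATP synthase that mitochondrial DNA encodes. Its ribosomal RNAs are transcribed in the organelle, while each of its proteins is encoded in the nucleus, made in the cytosol and imported. Some of these proteins descend from bacterial ribosomal proteins and others are found only in mitochondria. The heart depends on this ribosome because cardiomyocytes get nearly all their ATP from oxidative phosphorylation.

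Upstream of the start site, the member genes held short motifs named for NRF1, ETS factors, YY1 and SP1 at a higher share than genes in general. The YY1 share rested on 2 members, and the SP1 share of the Mrpl genes was close to that of all genes. Windows around some of the NRF1 and ETS matches are shown so that each can be read in its place. RefSeq promoter windows on GRCm38.p6 were matched by symbol for 64 of the 73 members, and the 250 bases before the start site were searched on both strands. The core of the NRF1 motif, GCGCATGCG, occurred in 6 of 64 members (9.38%) against 1.64% of the 27025 genes of the table. The ETS family motif CCGGAAGT occurred in 9 members (14.1%) against 3.23%. Either motif was present in 15 members (23.4%) against 4.73% of all genes, and no window held an NRF1 core and an ETS motif that shared bases. The member windows were also richer in G and C (median 58.4%) than those of all genes (median 52.4%). NRF1 is a transcription factor known for its action on nuclear genes of the respiratory chain, and GABP, an ETS factor, is known for the same role. All 6 NRF1 matches were in Mrpl genes (6 of 41 matched Mrpl genes, 0 of 23 Mrps genes), whereas ETS matches were in 6 Mrpl and 3 Mrps genes. These were matches of letters, with no measurement of binding. The 6 Mrpl genes with the NRF1 core and the 3 Mrps genes with the ETS motif are given below, each as the match in capitals with up to 25 bases on either side, cut at the start site, read 5′ to 3′ along the gene's strand.
Mrpl9 (NRF1 core, chr3:94443284-94443335, plus strand): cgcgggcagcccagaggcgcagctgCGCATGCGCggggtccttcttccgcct
Mrpl10 (NRF1 core, chr11:97041422-97041480, plus strand): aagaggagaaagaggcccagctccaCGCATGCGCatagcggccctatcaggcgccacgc
Mrpl17 (NRF1 core, chr7:105811088-105811123, minus strand): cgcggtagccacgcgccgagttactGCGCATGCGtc
Mrpl22 (NRF1 core, chr11:58171606-58171663, plus strand): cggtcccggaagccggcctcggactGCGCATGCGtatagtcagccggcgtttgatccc
Mrpl32 (NRF1 core, chr13:14613038-14613085, minus strand): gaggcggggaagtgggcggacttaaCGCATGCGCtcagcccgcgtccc
Mrpl39 (NRF1 core, chr16:84735335-84735393, minus strand): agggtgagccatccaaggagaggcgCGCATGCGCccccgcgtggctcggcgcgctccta
Mrps22 (ETS, chr9:98601680-98601715, minus strand): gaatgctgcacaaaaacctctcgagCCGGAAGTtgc
Mrps26 (ETS, chr2:130563717-130563756, plus strand): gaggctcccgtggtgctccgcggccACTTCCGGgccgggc
Mrps27 (ETS, chr13:99344712-99344769, plus strand): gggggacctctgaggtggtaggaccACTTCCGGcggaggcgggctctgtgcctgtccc
The match began 11 bases before the start site in Mrpl17 and in Mrps22, 15 bases in Mrps26, 23 in Mrpl32 and 27 in Mrpl9. It lay farther upstream in Mrpl39 (124 bases) and Mrpl10 (135 bases). Where a window held more than 1 match, as in Mrpl9, Mrpl32 and Mrpl39, the match nearest the start site is shown. The matches in Mrpl9 and in Mrpl39 began 1 base apart on opposite strands, so each of these windows held 1 site. Mrpl32 held such a pair farther upstream and, apart from it, the match shown. The 3 other motifs searched were GGGCGG (SP1), AAGATGGCG (YY1) and TCTCGCGA. SP1 was present in 48.4% of members and 35.4% of all genes. By subunit name it was in 15 of 23 Mrps genes (65.2%) and in 16 of 41 Mrpl genes (39%). YY1 was present in 3.12% of members and 0.71% of all genes, and TCTCGCGA in 0 of 64 members and 0.977% of all genes.

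The libraries held 7039514 to 12458309 counts, and members took 0.254 to 0.348% of them. The heart label was checked against 16 cardiomyocyte genes such as Myh6, Tnnt2 and Ryr2, whose summed level was 65123 to 97280 CPM (normalised counts divided by TMM-scaled library size) in 19 libraries and 27532 in control 19. That library also held 23990 summed CPM of 5 lung genes, against a median of 1.65 over the 20 libraries. Lower amounts were seen in control 1 (351), rapamycin 15 (136) and control 20 (60.7). Liver genes reached 344 CPM in rapamycin 9 and thymus genes 28.2 CPM in rapamycin 8. Results are therefore given with and without control 19. These are whole hearts, in which fewer cells of a type and less RNA per cell cannot be told apart.

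No member gene passed the test between the diets. Of the 73 members, all of which passed the filter on low counts, 0 had an adjusted p under 0.05 by edgeR's quasi-likelihood test with Benjamini-Hochberg adjustment over all 13940 genes tested, of which 3.36% passed (0.689% higher and 2.68% lower with rapamycin). Without control 19 the count was also 0, beside 3.38% of all genes, and so it was with DESeq2 and with limma-voom. At an unadjusted p under 0.05 there were 4 members, Mrps21, Mrpl17, Mrpl14 and Mrpl16, each higher with rapamycin, or 5.48% of the members against 21.7% of all genes (8.21% in the higher direction). The median log2 fold change of rapamycin over control was 0.07 (range -0.11 to 0.23), with 60 of 73 members above 0, against a median of -0.01 and 47.5% above 0 over all genes.

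The sign of that median depended on the scaling and its size on single hearts. With library totals alone the median of all genes moved to -0.13 and that of the members to -0.05, with 16 of 73 above 0, so that relative to all genes the members stood 0.08 higher with TMM and 0.09 higher without scaling. Without control 19 the members' median was 0.04 with 50 of 73 above 0, beside 51.4% of all genes above 0. Without the 4 libraries that held lung transcripts it was 0.01 with 40 of 73 above 0, beside 51.6%. The intervals were narrow: no 95% interval of a member reached beyond 0.795-fold or 1.37-fold, 69 of 73 held a log2 fold change of 0, and 51 lay wholly within a log2 fold change of 0.3 in either direction. Only 3 of 73 members (4.11%) had a log2 fold change beyond 0.2 in either direction, against 28.3% of all genes tested.

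**Figure D1:**
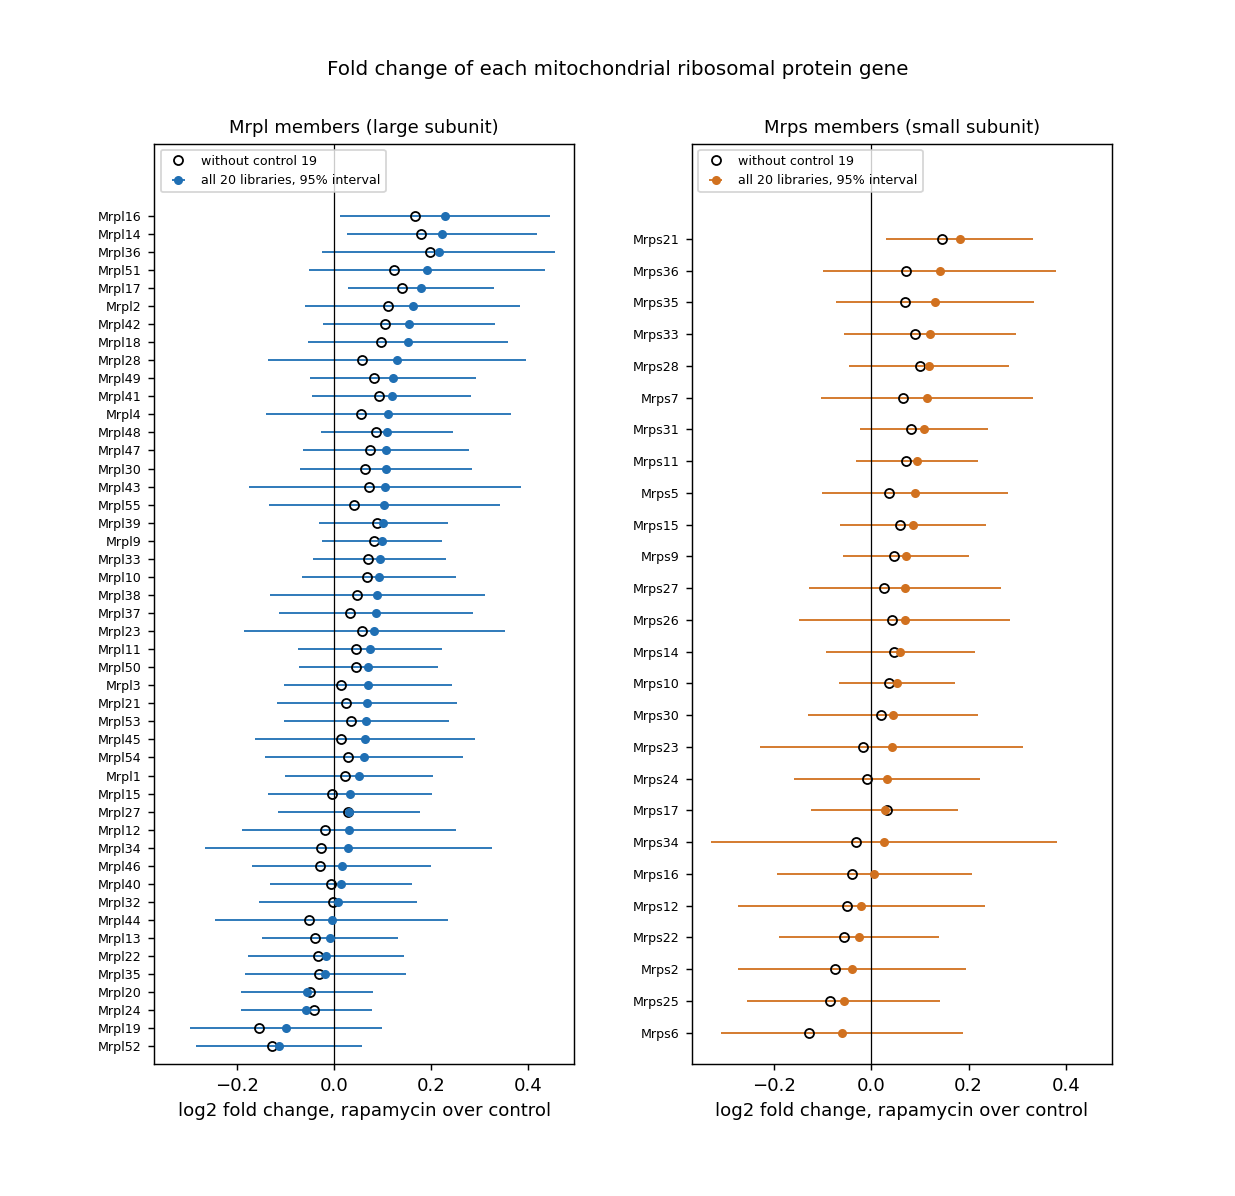
Each gene's log2 fold change of rapamycin over control in 10 against 10 hearts (filled points, with 95% intervals from edgeR) and the value without control 19 (open circles), for the 47 Mrpl and the 26 Mrps genes, ordered by value. Most filled points lie between 0 and 0.2 with intervals that cross 0, and the open circles are mostly nearer 0. With library totals alone only 16 of 73 members stood above 0.

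Among the large subunit genes, the leading values were those of Mrpl16, Mrpl14, Mrpl36, Mrpl51 and Mrpl17. Mrpl16, the mitochondrial form of a conserved protein near the peptidyl transferase centre, was at 22.3 CPM in the lowest, 40.5 in the median and 51.2 in the highest control heart, and at 42.0, 47.0 and 53.0 in the rapamycin hearts. All 10 rapamycin hearts were above the control median, yet the groups overlapped, since only the highest of them exceeded the highest control. The log2 fold change was 0.23 ± 0.10 (SE, adjusted p = 0.208 by edgeR, n = 10 per group), and 0.17 without control 19, the heart with the lowest level. Mrpl14, a protein of the face of the large subunit that meets the small one, ranged from 25.5 CPM over a median of 37.6 to 45.6 in controls. In rapamycin hearts it ranged from 34.1 over 43.0 to 52.2, with 8 of 10 above the control median. Its log2 fold change was 0.22 ± 0.09 (adjusted p = 0.173 by edgeR), or 0.18 without control 19.

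Mrpl17, a protein with a bacterial homologue and the NRF1 core close to its start site, was at 24.4, 34.9 and 39.0 CPM in the lowest, median and highest control and at 32.6, 38.6 and 44.4 CPM with rapamycin. 9 of 10 rapamycin hearts were above the control median, and the log2 fold change was 0.18 ± 0.07 (adjusted p = 0.157 by edgeR), or 0.14 without control 19. Mrpl36, a small protein with a bacterial homologue, was at 7.30, 9.90 and 14.3 CPM in controls and at 8.24, 12.1 and 14.3 CPM with rapamycin (log2 0.22 ± 0.12, adjusted p = 0.280 by edgeR). Its groups spanned almost the same range, although 9 rapamycin hearts were above the control median. Mrpl51, which is specific to mitochondria, was at 35.1, 66.5 and 87.5 CPM in controls and at 58.7, 78.6 and 86.2 CPM with rapamycin (log2 0.19 ± 0.12, adjusted p = 0.352 by edgeR, and 0.12 without control 19). Mrpl42, also specific to mitochondria and the most abundant member, was at 126, 191 and 241 CPM in controls and at 181, 222 and 246 CPM with rapamycin. Its log2 fold change was 0.15 ± 0.09 (adjusted p = 0.30 by edgeR), and its lowest value was again that of control 19.

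Of the small subunit genes, Mrps21 had the smallest p of all 73 members. This protein with a bacterial homologue was at 32.9, 45.8 and 52.4 CPM in the lowest, median and highest control and at 43.5, 51.8 and 59.0 CPM with rapamycin. 8 of 10 rapamycin hearts lay above the control median, 4 of them above the highest control, and the other 6 lay inside the control range. The log2 fold change was 0.18 ± 0.07 (adjusted p = 0.151 by edgeR), or 0.15 without control 19 (adjusted p = 0.176 by edgeR). Mrps12, the counterpart of the bacterial decoding-site protein S12, was at 12.9, 17.9 and 23.0 CPM in controls and 11.6, 17.1 and 20.6 CPM with rapamycin, a log2 fold change of -0.02 ± 0.12, or -0.05 without control 19. Mrps5, whose expression among mouse strains has been linked to lifespan, was at 17.2, 28.7 and 36.9 CPM in controls and 25.3, 30.6 and 34.4 CPM with rapamycin (0.09 ± 0.09, or 0.04 without control 19). All 10 rapamycin hearts lay inside the range of the controls for Mrps5. Mrps16 and Mrps22, both mutated in inherited deficiencies of the respiratory chain, stood at 0.01 ± 0.10 and -0.03 ± 0.08, and at -0.04 and -0.06 without control 19. The adjusted p of these 4 small subunit genes was at least 0.60 by edgeR.

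The remaining genes of the fixed list lay close to 0. Mrpl12, a protein of the stalk that recruits translation factors, stood at 0.03 ± 0.11 and at -0.02 without control 19, and Mrpl3 stood at 0.07 ± 0.08 and at 0.01 without control 19. Mrpl44, which has a fold related to RNase III, stood at -0.0047 ± 0.12 (between 22.3 and 47.3 CPM in controls, 25.2 and 39.0 with rapamycin), and at -0.05 without control 19. Mrpl41 stood at 0.12 ± 0.08. Mrps30, the large subunit protein with a small subunit name, stood at 0.04 ± 0.08, or 0.02 without control 19. Mrps36, the dehydrogenase component, was at 9.83, 19.6 and 25.6 CPM in controls and 16.6, 21.4 and 25.3 CPM with rapamycin (0.14 ± 0.12), or 0.07 without control 19. With library totals alone Mrpl12, Mrpl3, Mrps5, Mrps16 and Mrps30 moved below 0. On that scale Mrpl44, Mrps12 and Mrps22, already below 0 with TMM, stayed below it, and Mrpl41 and Mrps36 stayed above 0.

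Below 0 the values were small. Mrpl52, specific to mitochondria, was at 17.6, 20.8 and 26.4 CPM in controls and 16.1, 19.7 and 24.2 CPM with rapamycin, a log2 fold change of -0.11 ± 0.08 (adjusted p = 0.438 by edgeR). It was among the members whose lowest heart was not control 19. Mrpl19, a protein with a bacterial homologue, was at 15.4, 24.9 and 31.4 CPM in controls and 20.3, 23.3 and 28 CPM with rapamycin. Its log2 fold change was -0.10 ± 0.09 (adjusted p = 0.571 by edgeR) and moved to -0.15 without control 19 (unadjusted p under 0.05, adjusted p = 0.231 by edgeR). Mrpl24 stood at -0.06 ± 0.06, Mrpl20 at -0.06 ± 0.07, Mrps25 at -0.06 ± 0.10 and Mrps6 at -0.06 ± 0.12. Without control 19 Mrps25 stood at -0.09 and Mrps6 at -0.13. Of these, Mrpl19 shares 39.2%, Mrps25 58.2%, Mrpl24 38.2% and Mrps6 36.1% of their exonic bases with other genes in the reference annotation. Among the members described before, Mrpl12 shares 15.2% and Mrps30 18.1%. Mrps6 shares them with genes on its own strand, and the other members named here with genes on the opposite strand. No label states whether strand was used in counting, and strand would not separate genes on the same strand. Reads of such neighbours therefore cannot be told apart, and this holds for 14 members that share over 10% of their exonic bases.

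**Figure D2:**
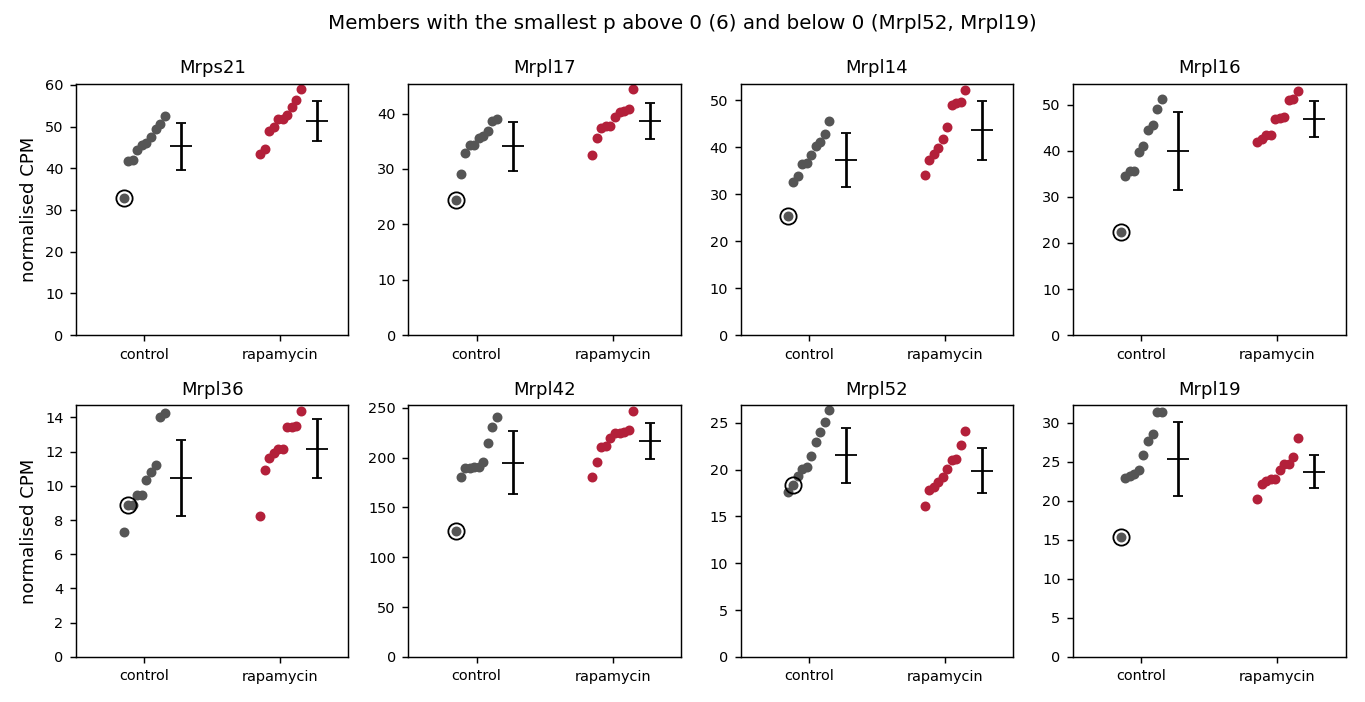
Normalised CPM of the 6 members with the smallest p above 0 and of Mrpl52 and Mrpl19 below 0, 1 point per heart with the mean and SD of each diet beside the points and control 19 circled. The diets overlap in every panel, and control 19 is the lowest control in Mrps21, Mrpl17, Mrpl14, Mrpl16, Mrpl42 and Mrpl19.

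Genes of the large and of the small subunit had similar fold changes. The median log2 fold change was 0.08 for the Mrpl genes (39 of 47 above 0) and 0.06 for the Mrps genes (21 of 26 above 0), and 0.05 and 0.04 without control 19. Scaled by library totals alone, 11 Mrpl and 5 Mrps genes stood above 0. The mean log2 CPM over the Mrpl genes was 4.77 in the lowest, 5.23 in the median and 5.46 in the highest control, and 5.05, 5.31 and 5.45 with rapamycin. Over the Mrps genes it was 4.52, 4.97 and 5.25 in controls and 4.82, 5.05 and 5.18 with rapamycin. Within a heart the Mrpl mean exceeded the Mrps mean by 0.241 ± 0.027 (SD, n = 10) in controls and by 0.253 ± 0.015 (SD, n = 10) with rapamycin. This difference ran from 0.20 to 0.288 in controls and from 0.226 to 0.274 with rapamycin, so each rapamycin heart lay inside the control range. In control 19, the lowest heart for both sets, the difference was 0.255.

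**Figure D3:**
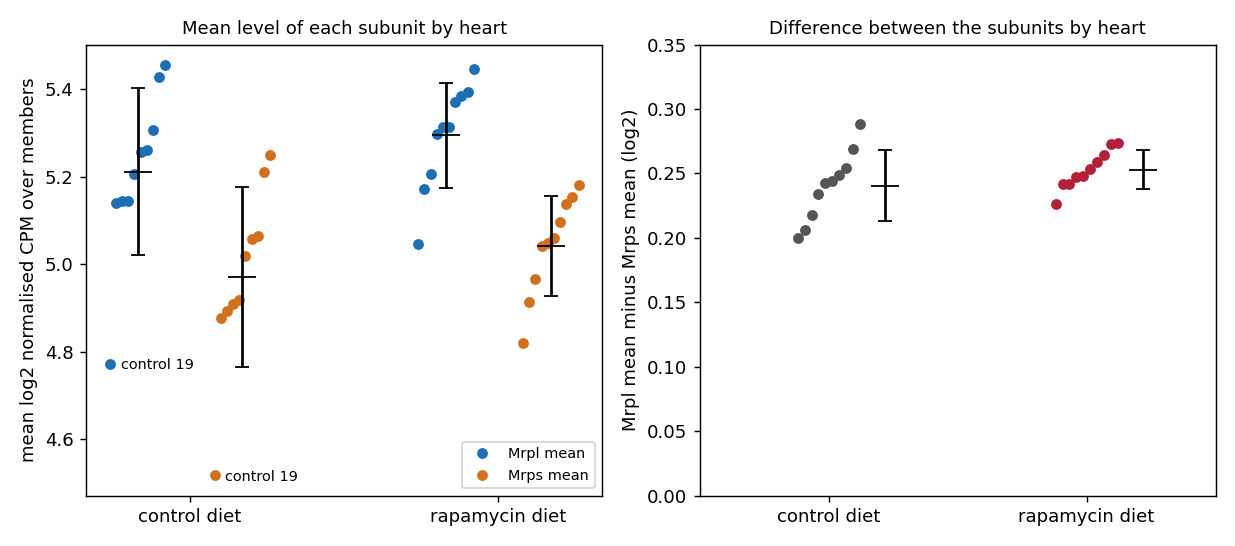
Left, mean log2 normalised CPM over the 47 Mrpl and the 26 Mrps genes in each heart; right, the Mrpl mean minus the Mrps mean in the same heart, with the mean and SD of each diet. Control 19 is the lowest heart for both sets, while the difference stays between 0.20 and 0.288 in the 20 hearts.

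By origin, the 44 members with a bacterial homologue and the 28 specific to mitochondria had the same median of 0.07, with 35 and 24 members above 0. Without control 19 both medians were 0.04. The 4 members at an unadjusted p under 0.05 all had a bacterial homologue. Placing Mrps30 in the large subunit and leaving out Mrps36 gave medians of 0.08 for 48 large and 0.06 for 24 small subunit genes.

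The means of the diets differed by less than the SD within either diet. Summed over the 73 members, the level was 2169 to 3618 CPM in controls (3045 ± 407, SD, n = 10) and 2726 to 3560 CPM with rapamycin (3221 ± 261, SD, n = 10). Control 19 had the lowest level of 56 of the 73 members (76.7%), whereas it was the lowest heart for 25.4% of all genes tested. It was the highest heart for 0 members and for 26.5% of all genes. On library totals alone it was lowest for 26 members. Lung genes and cardiomyocyte genes moved with this library, as given above, and their part in the members' low level was not tested.

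At the upper end, control 13 was the highest heart for 16 members (21.9%) and control 17 for 14 (19.2%), against 5.98% and 5.83% of all genes. Rapamycin 8 and rapamycin 15 were highest for 11 members each (15.1%), against 4.61% and 3.85% of all genes. The gene with the widest spread, singled out after its values were seen, was Mrps34, at 45.4 CPM in control 13 and 41.9 in control 17 but 15.9 to 30.4 in the other 8 controls. Without control 19 the median SD of log2 CPM was 0.169 over the members in controls and 0.168 with rapamycin, beside 0.180 and 0.165 for genes of the same range of mean CPM.

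**Figure D4:**
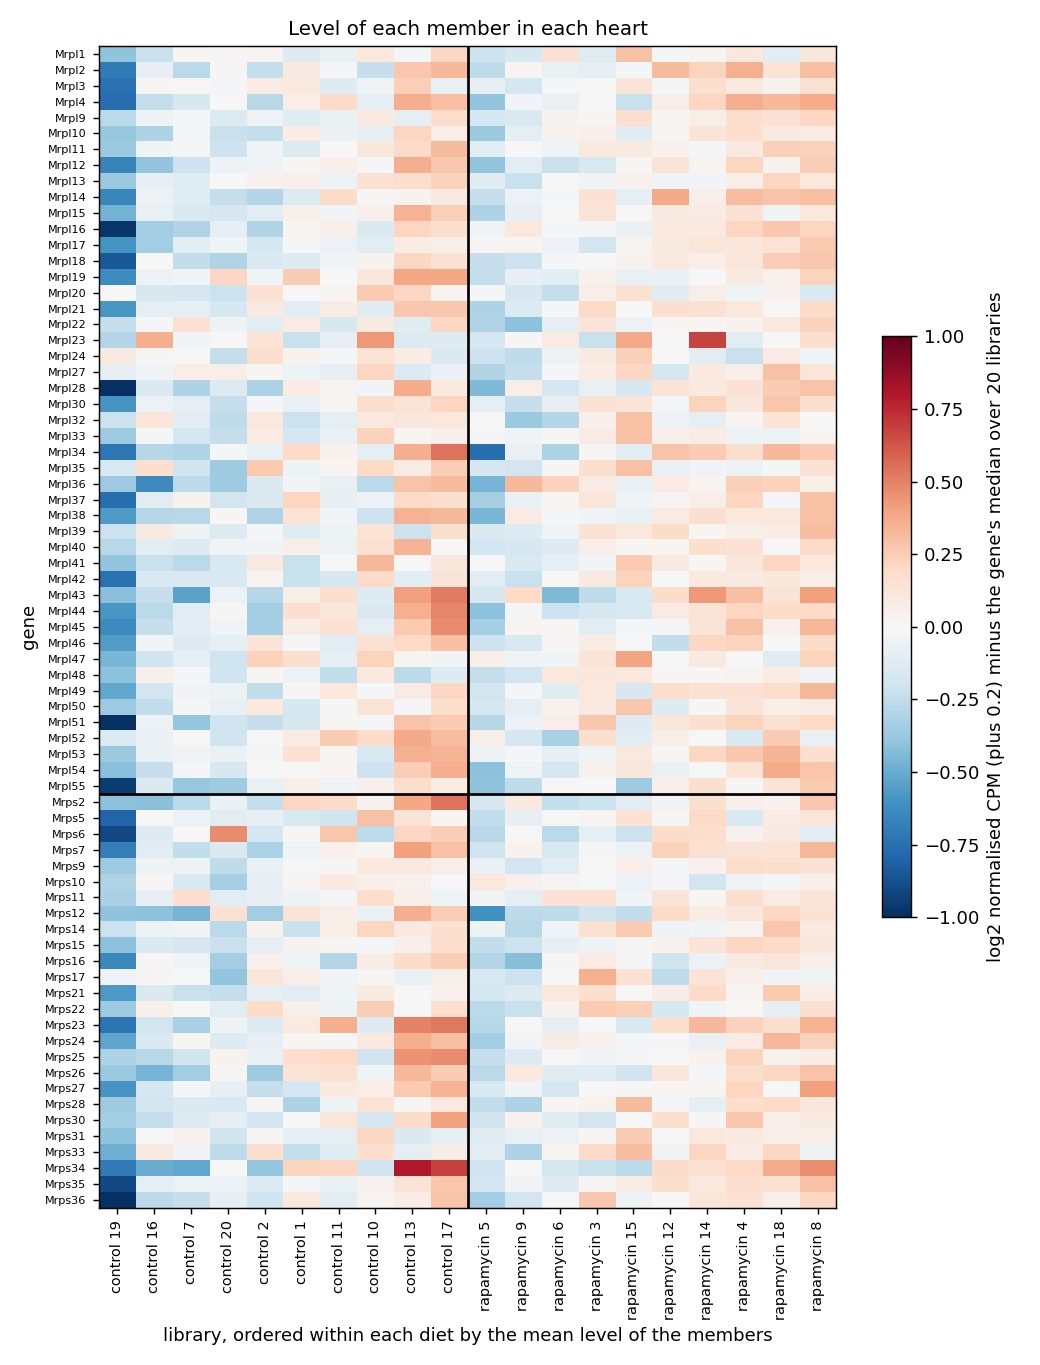
Log2 normalised CPM of each of the 73 members in each heart minus that gene's median over the 20 hearts, with hearts ordered within each diet by the mean level of the members, Mrpl genes above the line and Mrps genes below it; the colour scale ends at 1 in either direction. Control 19 is blue in most rows of both subunits, control 13 and control 17 are red in many, and rapamycin 5 is the lowest of the rapamycin hearts.

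No gene of the set had groups that did not overlap (0 of 73), where the background was 0.0717% of all genes tested. The members were moderately expressed: the mean over 20 hearts ran from 3.94 CPM (Mrpl23) to 206 CPM (Mrpl42). Divided by the length of the longest coding transcript of the reference annotation, the control level was highest in Mrpl42 (293 CPM per kb), followed by Mrpl12 (94.7), Mrps21 (92.7), Mrpl33 (84.8) and Mrps23 (77.3). It was lowest in Mrps25 (4.53), Mrpl17 (4.67), Mrpl19 (5.07) and Mrpl23 (5.20). The length assumed decided some of these places. With the median coding transcript Mrpl17 moved from place 72 to place 20 and stood at 45.9, while Mrpl42 stayed highest and Mrps25 lowest. On that length Mrpl30 moved from place 7 to place 2 and Mrps23 from 5 to 3, both at 163. Mrpl12 moved from place 2 to place 5 and Mrpl33 from 4 to 6. These genes were named from the order of the levels.

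The wider machinery of mitochondrial translation was read from 6 lists with 86 genes tested. Of these, 1 passed the test and rose with rapamycin, where 0.689% of all genes rose and 2.68% fell. With library totals alone 0 of the 86 genes rose and 3 fell, where 0.344% of all genes rose and 9.21% fell. Without control 19 and with RLE scaling 2 rose, and without the 4 libraries that held lung transcripts 0 passed. Of 12 translation factors tested, 9 stood above 0 and 0 passed (median log2 fold change 0.13). Of 20 aminoacyl-tRNA synthetases and amidotransferase subunits, 17 stood above 0 and 0 passed (0.09). Of 22 genes of ribosome assembly and rRNA modification, 16 stood above 0 and 1 passed (0.05). Transcription and RNA maintenance had 11 of 17 above 0 with 0 passing (0.05), insertion into the inner membrane 5 of 5 with 0 passing (0.08), and 10 ribosomal proteins with other symbols 8 of 10 with 0 passing (0.04). With library totals alone these medians were 0.02, -0.03, -0.07, -0.07, -0.03 and -0.08, in the same order, against -0.13 over all genes. Without control 19 they were 0.07, 0.06, 0.03, 0.02, 0.05 and 0.03. The 3 genes that fell on that scale were Pnpt1, the polynucleotide phosphorylase (log2 -0.21 ± 0.06), Fastkd2, an RNA-binding protein of ribosome assembly (-0.22 ± 0.06), and 1810035L17Rik (-0.23 ± 0.07), and with TMM they stood at -0.09, -0.10 and -0.11.

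The gene that passed was Eral1, a GTPase that acts as a chaperone of the small subunit rRNA. It was at 14.6, 17 and 19.1 CPM in the lowest, median and highest control and at 16.3, 21 and 21.5 CPM with rapamycin, and 8 of 10 rapamycin hearts exceeded every control. The log2 fold change was 0.23 ± 0.06 (adjusted p = 0.0389 by edgeR, n = 10 per group), and the adjusted p was 0.0485 by edgeR without control 19. The call was lost in 12 of the 20 fits that left out 1 library (without control 2, 7, 11 or 13 or rapamycin 3, 4, 6, 8, 12, 14, 15 or 18), with adjusted p from 0.0515 to 0.0755 by edgeR and fold changes of 0.22 to 0.24. It was also lost with limma-voom (adjusted p = 0.0638), with no filter on low counts (0.0534 by edgeR) and without the 4 libraries that held lung transcripts (0.0585 by edgeR). The call was kept with DESeq2 (adjusted p = 0.0217) and with RLE scaling (adjusted p = 0.0369 by edgeR). With library totals alone the value was 0.10 (adjusted p = 0.170 by edgeR). Mrrf, the ribosome recycling factor, was at 23.9, 34.5 and 37.5 CPM in controls and 34.9, 39.9 and 46.4 CPM with rapamycin, with 10 of 10 rapamycin hearts above the control median. Its log2 fold change was 0.26 ± 0.07 with an adjusted p of 0.050 by edgeR, which missed the threshold narrowly, and 0.22 with an adjusted p of 0.0376 by edgeR without control 19. It also passed without control 10, control 17 or rapamycin 5, with RLE scaling (adjusted p = 0.0485 by edgeR) and with DESeq2 (adjusted p = 0.0160).

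The next genes of these lists did not pass. Tfb2m, which starts mitochondrial transcription, stood at 0.20 ± 0.06 (adjusted p = 0.0843 by edgeR, and past the threshold without control 10, 0.0452, and with DESeq2, 0.0366), and Peo1, the helicase Twinkle, at 0.24 ± 0.11. Pet112l, a subunit of the amidotransferase that makes glutaminyl-tRNA in mitochondria, stood at 0.23 ± 0.08, the phenylalanyl-tRNA synthetase Fars2 at 0.20 ± 0.08 and the release factor Mtrf1l at 0.17 ± 0.07. The rRNA methyltransferase Ftsj2 stood at 0.18 ± 0.11, the insertase Oxa1l at 0.14 ± 0.10 and 1700034H14Rik, listed under its present symbol Timm21, at 0.07 ± 0.08. Of the ribosomal proteins with other symbols, Gadd45gip1 stood at 0.31 ± 0.18 (2.67 to 11.6 CPM in controls, 6.42 to 11.1 with rapamycin) and Dap3 at 0.10 ± 0.07. Without control 19 Dap3 stood at 0.06 and 1700034H14Rik at 0.05. Exon overlaps were read for the members only. Of these, Mrpl43 shares 27.5% of its exonic bases with Peo1 on the opposite strand.

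Set beside other gene groups of the same hearts, the members stood between the respiratory chain and the cytosolic ribosome. All 37 nuclear complex I subunits stood above 0 with a median of 0.18 (0.12 without control 19, and 34 of 37 above 0 with library totals alone), and 0 passed. Of the 13 mitochondrially encoded subunits, which the mitochondrial ribosome makes, 8 were tested. Of these, 7 stood above 0 and 0 passed, with a median of 0.23 and a range of -0.57 to 0.35. The median was 0.19 without control 19, 0.13 without the 4 libraries that held lung transcripts and 0.11 with library totals alone. Of 76 cytosolic ribosomal protein genes tested, 10 stood above 0 and 0 passed, with a median of -0.06, whereas with library totals alone 1 stood above 0, 11 fell and the median was -0.18. On that scale 9.21% of all genes tested fell. The difference between these groups and the members was not tested.

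Markers of heart cell types were read in the same fit. The 16 cardiomyocyte genes all stood above 0 with 0 passing (median 0.29, and 0.21 with 1 passing without control 19), and their mean log2 CPM was 10.1 to 11.9 in controls and 11.6 to 12 with rapamycin. Of 14 macrophage genes tested 10 fell by edgeR (median -0.59), beside 2.68% of all genes tested. Without control 19 the count was 11, beside 3.38% of all genes called in either direction. The mean log2 CPM of the macrophage genes was 4.83 to 5.87 in controls and 4.42 to 5.25 with rapamycin. In the 8 fibroblast genes the median was -0.07, and in the 8 endothelial genes -0.03, with 0 passing in both. Without control 19 these medians were -0.04 and 0.04, and the endothelial genes above 0 went from 3 to 7 of 8. Members and complex I subunits were both lowest in control 19, where the members' mean log2 CPM was 4.68 and that of complex I 6.84, and the next lowest heart of either diet held 4.97 and 7.47. The part of cardiomyocyte content in the members' values was not tested.

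**Figure D5:**
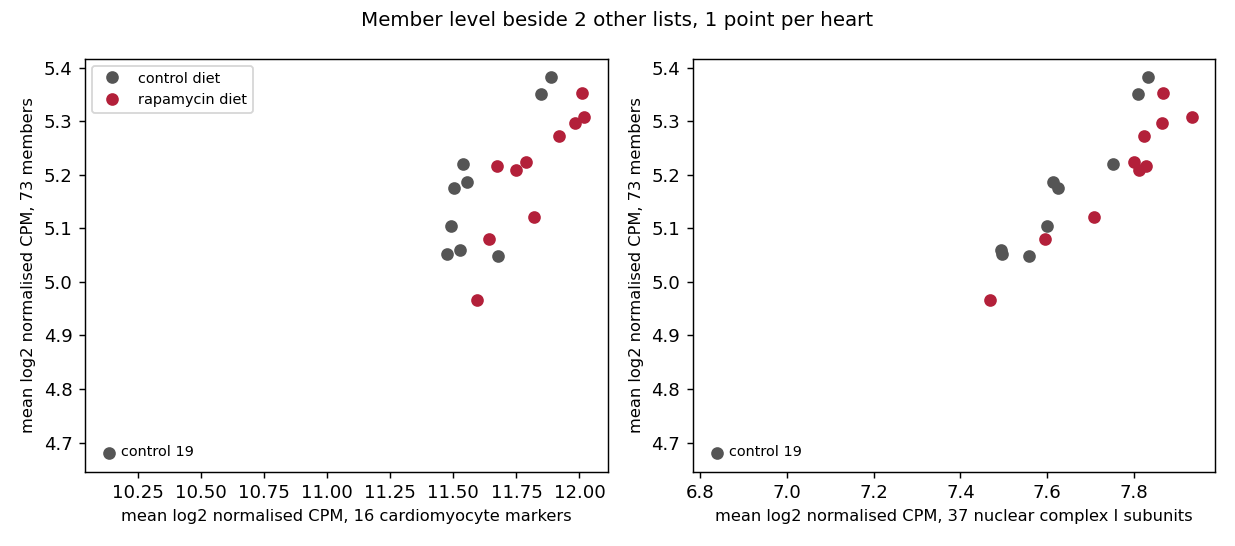
Mean log2 normalised CPM of the 73 members in each heart against that of 16 cardiomyocyte markers (left) and of 37 nuclear complex I subunits (right), 1 point per heart, coloured by diet. Control 19 lies lowest on all 3 measures, and the other 19 hearts hold 4.97 to 5.38 for the members.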

How the data were processed

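The authors' deposited files are 34291 gene symbols with raw counts in 20 columns, and 700 genes in CPM. The deposited CPM equal counts divided by the column total for the 696 rows matched by symbol, within 0.001 CPM; that table was not tested. It holds 0 members, and Eral1 and Mrrf of the lists. Per the series' design text, mapping used MGSCv37 and unique sites only, allowed 2 mismatches and paired distances from 130 to 300, and required 5 reads per mapping. The submitters' processing notes name edgeR without a role. Aligner, counter and strand setting: not given in the sources used here.

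Sample titles give each library's group and number, and the design text says that replicates are mice. The column of rapamycin 4 lacks 1 letter of its title and matched no other title's number. In each of the 90 pairs of libraries within a group the counts differed beyond sampling noise (chi-square over degrees of freedom at least 5.72).

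Raw counts were tested with R 4.3.3 and edgeR 4.0.16: the default filter by expression, TMM scaling, and 1 quasi-likelihood F-test over the 20 libraries with diet as the only term. Benjamini-Hochberg adjusted p had to be under 0.05. Alternatives used DESeq2 1.42.0, limma 3.58.1, other scalings, no filter and fewer libraries. The script was tested on simulated data. Normalised CPM were taken with TMM library sizes; log2 CPM had a prior count of 2. The counting error of a gene depends on its own count in a library, and no member had fewer than 25 counts in a library. Levels per kb use coding transcripts of GENCODE M21, and exon overlaps use its annotation.

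Members named in the text are those called, the 6 with the smallest p and the 4 with the largest fold in each direction (mean of at least 5 CPM), a fixed list of 10, and for each list those called and the 2 with the smallest p. The members, lists and rules were chosen with earlier results of these data known. The complex I, cytosolic ribosome and mitochondrially encoded lists, and the promoter windows printed, were chosen after the data were seen.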

Additional observations from a re-analysis of the deposited data

Results flagged for a closer look

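Each group of 10 hearts was searched for a lowest or highest value that lay far from the nearest other, by Dixon's 95% limit. Of 84 such groups 14 held one. Chance marks about 1 in 20 of independent groups, but these groups share hearts and in part genes, so the count cannot be read against that rate. In 13 of the 14 the value was the lowest control and belonged to control 19, the library with lung transcripts. It held a mean log2 CPM of 4.68 over all members, 4.77 over Mrpl and 4.52 over Mrps genes, a summed level of 2169 CPM over the members, 10.1 over cardiomyocyte markers and 6.84 over complex I subunits. Of single genes it held 126 CPM of Mrpl42, 15.4 of Mrpl19, 62.1 of Mrpl3, 9.83 of Mrps36, 23.9 of Mrrf, 25.5 of Pet112l and 58.5 of Dap3. The exception was Eral1, at 16.3 CPM in rapamycin 5 where the next rapamycin heart held 19.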

How the results depend on the processing

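No paired analysis was possible because each library number from 1 to 20 occurs in only 1 diet group. The count of members called was 0 in each of 26 alternatives. Of the 23 members named by the rule, 13 kept their sign in each alternative. The lists of mitochondrial translation held 1 called gene, and 2 without control 19. In alternatives chosen after seeing the data they held 2 with RLE factors, 0 without the 4 libraries with lung transcripts and 3, each lower, with library totals alone. With DESeq2 Eral1, Mrrf and Tfb2m passed, each higher, whereas none of them did with limma-voom or with no filter. Members lowest in control 19 numbered 26 with library totals alone. Signs changed with library totals alone for 1700034H14Rik (-0.049), Dap3 (-0.024), Mrpl12 (-0.085), Mrpl3 (-0.049), Mrps16 (-0.11), Mrps30 (-0.073) and Mrps5 (-0.026). They changed without the 4 libraries for 1700034H14Rik (-0.015), Mrpl12 (-0.030), Mrps12 (0.019), Mrps16 (-0.091) and Mrps5 (-0.012). Mrpl44 changed sign with DESeq2 (0.00129), limma-voom (0.011), no filter (0.012) and RLE (0.000947). Leaving out 1 library at a time gave ranges that crossed 0 for Mrpl12 (-0.019 to 0.084), Mrpl44 (-0.051 to 0.064), Mrps12 (-0.059 to 0.033), Mrps16 (-0.039 to 0.047), Mrps22 (-0.056 to 0.00275), Mrps25 (-0.089 to 0.00141) and Mrps6 (-0.13 to 0.000763). The members' median minus that of all genes stayed between 0.0061 and 0.116, lowest without the 4 libraries. The Mrpl minus Mrps median stayed between -0.00146 and 0.0296. The causes of these shifts were not tested.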

Other observations

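The 5 rows of Mrpl and Mrps pseudogenes in the table (Mrpl23-ps1, Mrpl48-ps, Mrpl51p, Mrps36-ps1 and Mrps36-ps2) held at most 2 counts in a library. The 6 members with the NRF1 core had a median log2 fold change of 0.10 and the 58 matched members without it 0.07, and the 9 with the ETS motif had 0.07, as did the 55 without it. In the gene of the set with the lowest counts, Mrpl23, the highest heart was rapamycin 14 at 6.12 CPM, beside 3.03 to 5.15 in controls. Mrpl34 spread widely within both diets, from 15.2 to 36.8 CPM in controls and from 14.8 to 31.5 with rapamycin.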
